A study of Homo sapiens with 15 samples.

Results

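The replication-dependent histone genes encode the core histones H2A, H2B, H3 and H4, around which DNA is wound, and the linker histone H1, which binds between nucleosomes. Their members were the gene identifiers that start with H2AC, H2BC, H3C or H4C followed by a number, and H1-1 to H1-6. This gave 70 of the 50037 genes in the deposited table, of which 6 were H1, 17 H2A, 19 H2B, 13 H3 and 15 H4 genes. Left out were 2 pseudogenes with 1 count, 1 antisense transcript (H2BC6-AS1) with 33 counts, and 2 second listings of a gene on another scaffold with 0 counts. Of the members, 55 lie on chromosome 6 and 13 on chromosome 1, with H4C16 on chromosome 12 and H2BC12L on chromosome 21.

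Replication-dependent histone genes lack introns as a rule, are transcribed mainly in S phase, and give mRNAs without a poly(A) tail. In place of the tail, these mRNAs end just after a short stem-loop that is bound by the stem-loop binding protein SLBP and cut with the help of the U7 small nuclear RNA. When DNA synthesis stops, histone mRNAs are uridylated and degraded quickly from the 3′ end. Small RNA libraries hold short RNAs, so a count on a histone gene here is a fragment of its mRNA and not a whole transcript, and the counts do not tell the 2 strands apart.

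The study holds 15 small RNA libraries, all of genotype WT and collected after 18 h of incubation. The labels call the cells HEK-293, an embryonic kidney line, while the title of the series speaks of macrophages. The GKT136901 group (5 libraries) received the lipid hydrolysis products that lipoprotein lipase (LPL) releases from very low-density lipoprotein (VLDL) together with GKT136901 at 20 µM, a compound known to inhibit the NADPH oxidases 1 and 4. The LPL:VLDL group (5 libraries) received the hydrolysis products without the inhibitor. The VLDL group (5 libraries), titled pcDNA:VLDL, received VLDL, and the labels do not explain the name pcDNA. The labels give each group 1 library from each of experiments 2 to 6, which are replicates 1 to 5, and do not say whether these came from separate cultures. Total counts ran from 5076917 to 9757123 per library. Of 18 genes that mark HEK-293 cells, 8 had 0 counts, among them LIN28B, KRT8, KRT18 and EPCAM. The other 10 had a count, with 49 for MEIS2, 34 for TFAP2A and at most 8 for the rest. The summed level of these 18 genes was 0 to 1.6 CPM (counts relative to the size of the library, after TMM scaling). Of 18 myeloid genes, 17 had a count, from 3 for CD163 and 4 for MRC1 to 1771 for CSF1R. Among them, CD14 held 31 counts and LYZ 30. The summed level of the 18 myeloid genes was 28.8 to 95 CPM, so the summed markers went against the labelled cell line. The summed level of 10 lymphoid and erythroid genes was at most 0.225 CPM in any library.

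The stem-loop carries the 3′ end of these mRNAs, and its letters are given for 7 members that passed the filter on low counts and whose GENCODE v29 transcript (GRCh38) reaches it. Capitals mark the 16 bases of the stem-loop.
H4C5 (chr6:26204996-26205021, plus strand): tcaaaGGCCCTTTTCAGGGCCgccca
H4C2 (chr6:26026896-26026921, minus strand): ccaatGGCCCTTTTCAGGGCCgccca
H4C8 (chr6:26285126-26285151, minus strand): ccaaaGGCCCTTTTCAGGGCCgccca
H2AC8 (chr6:26217412-26217437, plus strand): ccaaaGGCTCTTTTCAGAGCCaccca
H2AC11 (chr6:27133510-27133535, plus strand): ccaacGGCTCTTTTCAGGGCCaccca
H2BC8 (chr6:26216213-26216238, minus strand): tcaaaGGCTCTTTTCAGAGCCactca
H2BC21 (chr1:149886183-149886208, minus strand): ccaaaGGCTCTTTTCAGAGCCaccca
Many member transcripts in this annotation stop at the coding sequence. Of the 28 with at least 60 bases after it, 27 held the stem-loop on the sense strand, and the search found none in those of H1-4. H1-4 had just 60 such bases, so its annotated transcript may end before a stem-loop. In all, 30 members held it, 25 to 70 bases after the last amino acid codon (median 38.5). These distances and the limit of 60 bases include the stop codon. All 8 H4 members among them had a stem that starts GGCCC, while the 22 others, of the H2A, H2B and H3 families, had one that starts GGCTC. Of 19702 protein-coding genes, 51 (0.259%) held a match in any of their protein-coding transcripts. This search was wider than that of the members, which used only transcripts of 1 exon. Of 10 replacement and variant histone genes, searched like the members, 1 held a match, H2AX, a variant known to be made in both forms. H2AZ1, H2AZ2, H3-3A, H3-3B, MACROH2A1 and MACROH2A2 had no bases after the coding sequence in a transcript of 1 exon. The RefSeq gene used for counting ended 4 to 18 bases past the stem-loop in 24 of the 30 members, and 1729 to 29196 bases past it in the other 6, H2BC21 (1729 bases) among them.

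The H2A and H2B genes of 12 pairs stand head to head and share the DNA between their starts, 193 to 247 bases. Of these, the pairs H2AC8 with H2BC8 and H2AC20 with H2BC21 held the most counts for both partners together, and their shared promoters are given from RefSeq (GRCh38.p14, plus strand), with the H2B gene to the left. Capitals mark matches on either strand to TATAAA (the TATA box), CCAAT (the letters that the factor NF-Y binds) or ATTTGCAT (the octamer of POU factors), and a match is a description of the letters and not a site shown to be used.
H2BC8 to H2AC8 (chr6:26216689-26216920): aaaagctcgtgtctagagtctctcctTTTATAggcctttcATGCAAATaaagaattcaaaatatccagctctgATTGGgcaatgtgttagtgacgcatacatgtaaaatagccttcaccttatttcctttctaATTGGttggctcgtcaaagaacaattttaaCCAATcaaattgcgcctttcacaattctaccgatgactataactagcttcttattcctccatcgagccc
H2BC21 to H2AC20 (chr1:149886683-149886917): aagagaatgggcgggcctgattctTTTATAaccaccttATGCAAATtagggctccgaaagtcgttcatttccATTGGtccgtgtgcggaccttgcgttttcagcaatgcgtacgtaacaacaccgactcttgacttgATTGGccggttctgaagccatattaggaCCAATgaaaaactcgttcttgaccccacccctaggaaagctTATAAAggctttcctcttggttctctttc
The gaps of all 12 pairs held CCAAT, and 9 held ATTTGCAT. In the RefSeq promoter windows, which reach from before the gene start to just after it and were found for 64 members, ATTTGCAT stood in 77.8% of 18 H2B and 68.8% of 16 H2A members, 9.09% of 11 H3 members and none of the 6 H1 and 13 H4 members, against 1.8% of 27305 promoters of all genes. CCAAT stood in all H1, H2A, H2B and H3 members with a promoter and in 23.1% of H4 members, against 35.7% of all promoters. TATAAA stood in 65.6% of the 64 members, against 12% of all promoters. Partners of a pair share most of these letters, so the members are not independent of each other here.

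Histone fragments were rare. The 70 members held 7060 counts in all libraries together, 0.00532% of all counts and 0.485% of the counts on protein-coding genes. Of the members, 59 had a count, 14 had one in every library, and between 27 and 48 had one in any 1 library. H4C5, an H4 gene at chr6:26204610-26205021 (plus strand, 1 exon), held 748 counts. The linker histone gene H1-4 held 418, the H3 gene H3C1 360, the H2B genes H2BC21 and H2BC8 349 and 347, and the H2A genes H2AC20 and H2AC12 327 and 308. The 10 members with most counts held 50.8% of the histone counts. Per length, H4C5 averaged 13.6 CPM per kb over the 15 libraries, followed by H3C1 with 5.49, H2BC8 with 5.24, H2AC12 with 5.01 and H2AC20 with 4.97 CPM per kb. H2BC21 averaged 1.18 CPM per kb over a counted length of 2224 bases, which includes the stretch past the stem-loop. By family the counts were 1651 on H4, 1632 on H2A, 1585 on H2B, 1270 on H3 and 922 on H1, and H4C5 held 45.3% of the H4 counts.

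**Figure D1:**
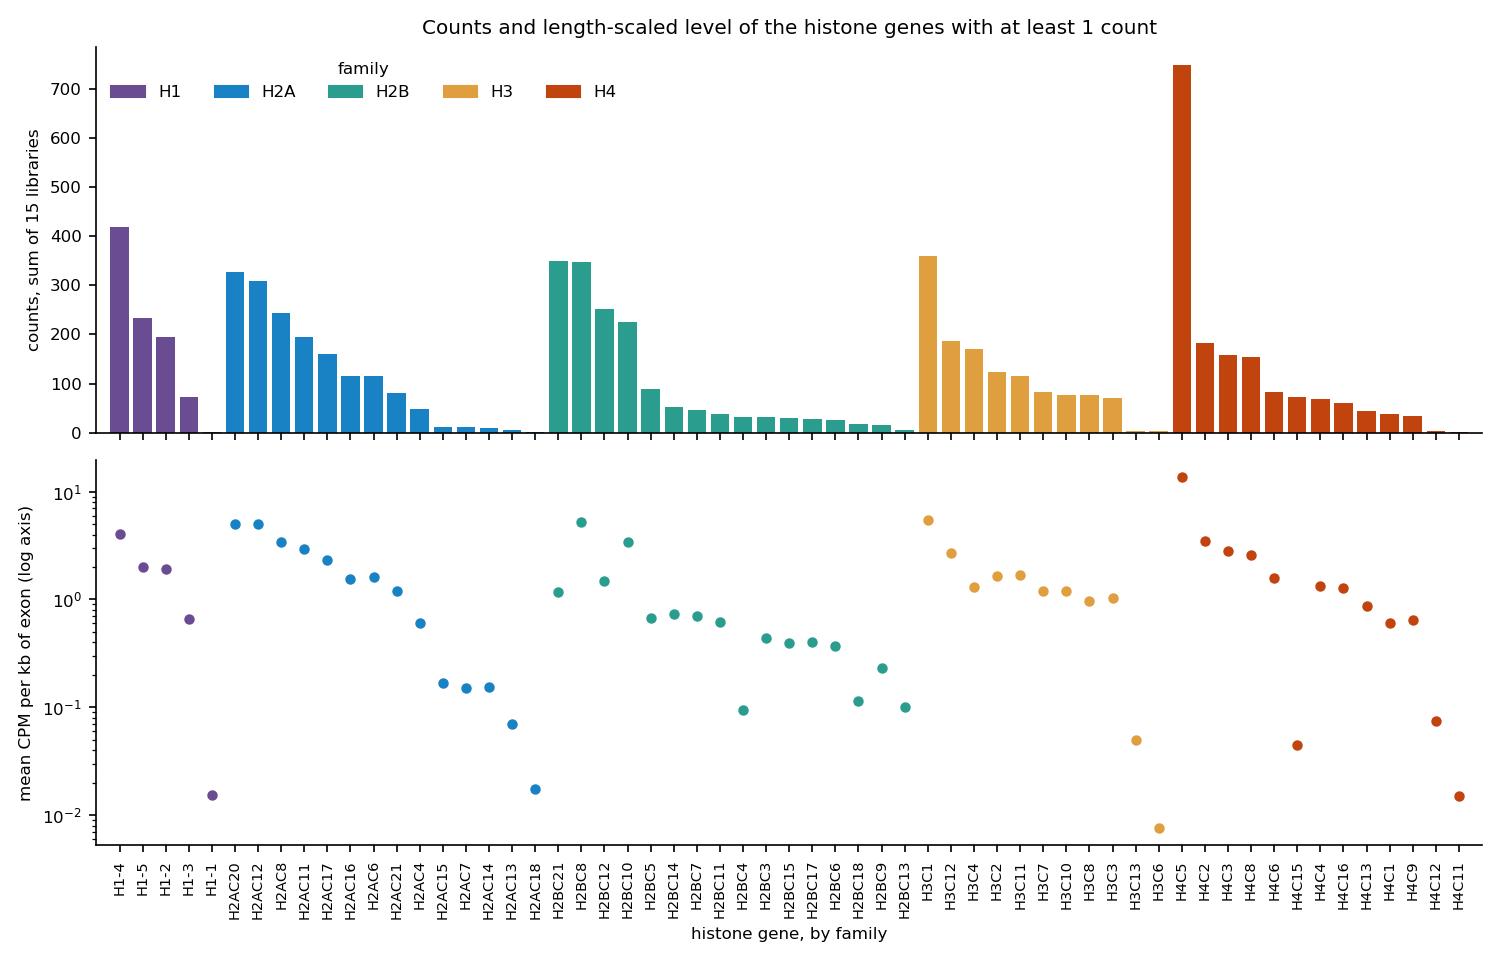
Counts of the 59 histone genes with at least 1 count (upper panel, bars, sum of 15 libraries) and their mean level per length (lower panel, points, CPM per kb of exon, log axis), coloured by family. H4C5 has 748 counts and 13.6 CPM per kb, and each family has a few genes with most of its counts and a tail of genes near 0.

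Among the 11 members at 0, H1-6, H2AC1 and H2BC1, which are known from the testis, had 0 counts although 100%, 99.2% and 98.4% of the 22-base stretches of their transcripts occur in no other transcript. H4C7, with 92.0% such stretches, H2AC25 and H2BC26 were at 0 too, and 0 counts in 15 libraries allow a level of up to 0.0226 CPM (3 counts of the total, counting error only). H3C14, H3C15, H4C14 and H2BC12L were at 0 and had 0% such stretches, and H2AC19 had 2.92%. Other members with few such stretches did have counts, with 4 on H4C12 and 1 on H2AC18, both at 0%, and 73 on H4C15 at 4.77%, and the 10 members under 10% held 334 counts. Reads that map to several places were not counted, and the part of this in the counts of 0 was not tested. H3C15 and H2AC19 also lie wholly inside exons of H4C15, and reads over exons of more than 1 gene were not counted. Across 69 members compared, a median of 73.6% of the 22-base stretches were unshared, with medians of 97.3% for H1, 88.0% for H4, 81.8% for H3, 68.4% for H2A and 55.8% for H2B. The order of levels per length is therefore one of counted fragments and not of mRNA. H2BC12 had 8.61% of unshared stretches in the transcript compared and 252 counts, over a counted length of 1275 bases in 5 exon pieces, against 381 bases compared.

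Whether the hydrolysis products or the inhibitor went with a change of histone fragments was tested gene by gene. The filter on low counts, which needs about 10 counts in each of 5 libraries, kept 22 members, which held 78.3% of the histone counts; the other 48 were not tested, 37 of them with a count. No member was called (edgeR quasi-likelihood test, Benjamini-Hochberg adjusted p under 0.05 over 4099 genes) for GKT136901 versus LPL:VLDL, GKT136901 versus VLDL or LPL:VLDL versus VLDL, where 0%, 0% and 0% of all genes were called. With the experiment as a block the counts of members were 0 again, against 0%, 0% and 0.0244% of all genes. At an unadjusted p under 0.05 the test found 1 member for GKT136901 versus LPL:VLDL (2.12% of all genes), 0 for GKT136901 versus VLDL (2.22%) and 1 for LPL:VLDL versus VLDL (1.88%). With the block these were 0 members (3.68% of all genes), 0 members (4.32%) and 1 member (4.2%). DESeq2 and limma voom called 0 members as well. For LPL:VLDL versus VLDL, DESeq2 with the block gave H1-2 and H4C5 no adjusted p, so that run could not call them. The median log2 difference of the 22 members was -0.07 for GKT136901 versus LPL:VLDL, 0.03 for GKT136901 versus VLDL and -0.05 for LPL:VLDL versus VLDL, against -0.02, -0.004 and 0.01 for all genes tested. Members with a positive difference numbered 10, 11 and 10 of 22. The median standard error (SE) of a member was 0.65 to 0.66 on the log2 scale. A difference of that size could not be told from 0 with this spread between libraries. Larger ones were not called either, such as -1.57 for H1-2 (LPL:VLDL versus VLDL) and 1.38 for H2BC10 (GKT136901 versus LPL:VLDL). In bulk RNA, fewer cells in S phase and less histone RNA per cell cannot be told apart.

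**Figure D2:**
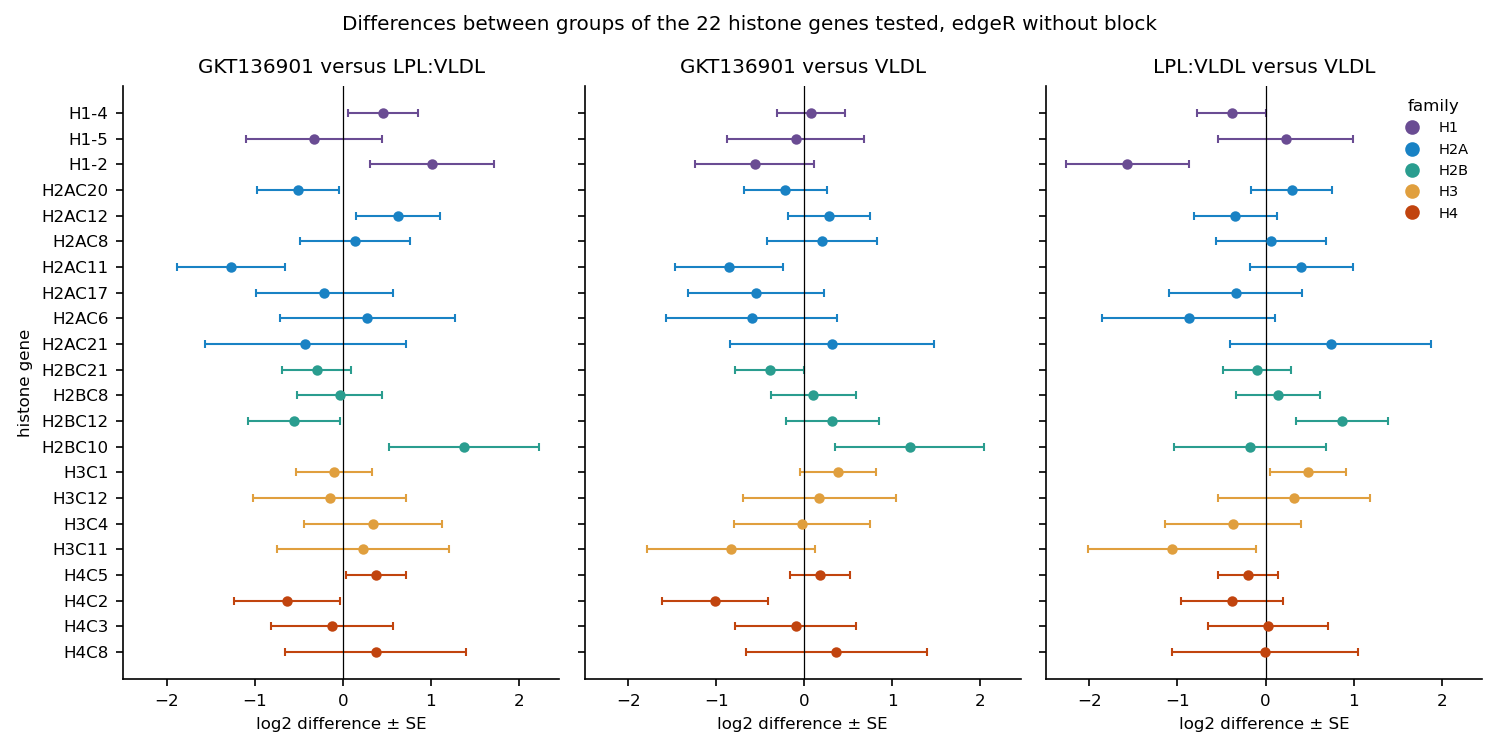
Log2 differences (points) with their standard errors (bars) for the 22 histone genes tested, in the 3 comparisons, from edgeR without the experiment as a block, coloured by family. The points lie on both sides of 0 in each comparison, from -1.57 for H1-2 (LPL:VLDL versus VLDL) to 1.38 for H2BC10 (GKT136901 versus LPL:VLDL).

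Linker histones bind the DNA between nucleosomes, and 3 of the 6 H1 members could be tested. H1-2 stood at 1.34, 1.61, 1.19, 2.17 and 0.80 CPM in the GKT136901 libraries of experiments 2 to 6, at 1.56, 0, 0.695, 1.09 and 0 CPM in the LPL:VLDL libraries and at 2.99, 1.53, 2.92, 1.46 and 1.57 CPM in the VLDL libraries. Its LPL:VLDL value was below the VLDL value in 5 of 5 experiments, with 2 LPL:VLDL libraries at 0 counts, and the ranges overlapped (highest LPL:VLDL 1.56 CPM, lowest VLDL 1.46 CPM). The log2 difference of H1-2 for LPL:VLDL versus VLDL was -1.57 ± 0.70 (SE, unadjusted p = 0.0325, adjusted p = 0.999, edgeR quasi-likelihood test) and with the block -1.91 ± 0.72 (unadjusted p = 0.0124, adjusted p = 0.988), so it did not pass the adjusted threshold. Of the 16 alternatives other than leaving out single libraries, DESeq2 with the block gave H1-2 no adjusted p, and in the other 15 it lay between 0.589 and 1.00 (edgeR, DESeq2 or limma). With GKT136901 its mean was 1.42 ± 0.51 CPM, against 0.671 ± 0.685 CPM under LPL:VLDL and 2.09 ± 0.79 CPM under VLDL (SD, n = 5 each).
H1-4, the H1 gene with most counts, had 3.72, 3.22, 4.88, 3.2 and 2.63 CPM with GKT136901, 1.3, 3.6, 2.2, 3.39 and 2.41 CPM under LPL:VLDL and 3.16, 2.55, 5.43, 2.25 and 3.37 CPM under VLDL (experiments 2 to 6 in each group). All 3 ranges overlapped, with the lowest value in an LPL:VLDL library and the highest in a VLDL library. H1-5 had 0.517, 0.804, 2.82, 2.51 and 0.572 CPM with GKT136901, 5.99, 1.25, 1.39, 0.219 and 0.134 CPM under LPL:VLDL and 4.13, 0.713, 0.209, 1.13 and 1.57 CPM under VLDL. Within each group 1 or 2 libraries held most of its counts, with 69 counts in the LPL:VLDL library of experiment 2 and 1 to 12 in the other 4, and the ranges overlapped widely.

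**Figure D3:**
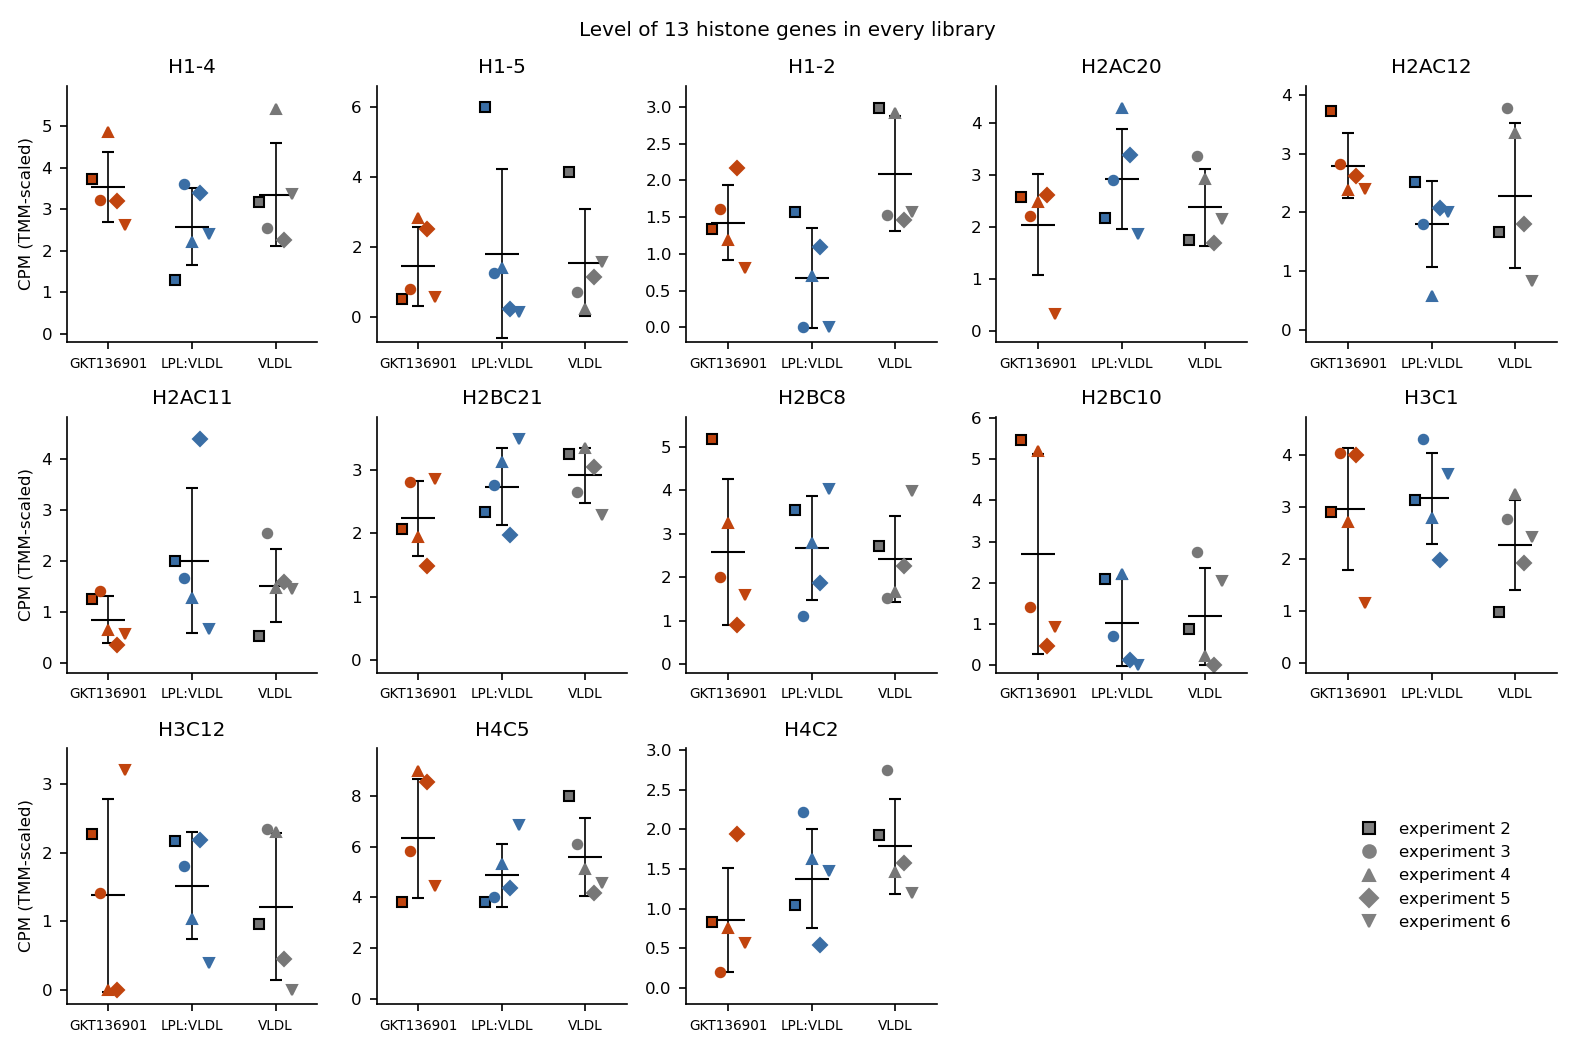
Level (TMM-scaled CPM) of 13 histone genes in each library, by group, with the mean (horizontal line) and SD (bars, n = 5); the marker shape gives the experiment and black outlines mark experiment 2. H1-2 has its 2 values at 0 in the LPL:VLDL group, and H1-5 and H2BC10 each have a few libraries far above the rest.

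Of the H2A genes, which pair with H2B in the nucleosome, 7 of 17 were tested. H2AC20 stood at 2.59, 2.21, 2.49, 2.63 and 0.343 CPM with GKT136901, at 2.17, 2.91, 4.28, 3.39 and 1.88 CPM under LPL:VLDL and at 1.76, 3.36, 2.92, 1.69 and 2.17 CPM under VLDL. The GKT136901 library of experiment 6 was lowest, with 3 counts, and the other 14 libraries lay between 1.69 and 4.28 CPM. H2AC12 had 3.72, 2.81, 2.38, 2.63 and 2.4 CPM with GKT136901, 2.52, 1.8, 0.579, 2.08 and 2.01 CPM under LPL:VLDL and 1.67, 3.77, 3.34, 1.8 and 0.843 CPM under VLDL. GKT136901 was above LPL:VLDL in 5 of 5 experiments, the ranges met between 2.38 and 2.52 CPM, and the log2 difference was 0.63 ± 0.47 (SE, unadjusted p = 0.197, edgeR). For H2AC11 the levels were 1.24, 1.41, 0.65, 0.343 and 0.572 CPM with GKT136901, 2.0, 1.66, 1.27, 4.38 and 0.671 CPM under LPL:VLDL and 0.527, 2.55, 1.46, 1.58 and 1.45 CPM under VLDL. Its GKT136901 value was below the LPL:VLDL value in 5 of 5 experiments, while the ranges overlapped. The log2 difference of H2AC11 for GKT136901 versus LPL:VLDL was -1.27 ± 0.61 (SE, unadjusted p = 0.0481, adjusted p = 1.00, edgeR quasi-likelihood test) and with the block -1.15 ± 0.65 (unadjusted p = 0.0885, adjusted p = 1.00).

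H2B genes gave 4 tested members of 19. H2BC21 had 2.07, 2.81, 1.95, 1.48 and 2.86 CPM with GKT136901, 2.34, 2.77, 3.13, 1.97 and 3.49 CPM under LPL:VLDL and 3.25, 2.65, 3.34, 3.04 and 2.29 CPM under VLDL. It spread least of the 22 members tested, with a coefficient of variation of 0.22 over 15 libraries, and its 3 groups overlapped. H2BC8 stood at 5.17, 2.01, 3.25, 0.914 and 1.6 CPM with GKT136901, 3.56, 1.11, 2.78, 1.86 and 4.02 CPM under LPL:VLDL and 2.72, 1.53, 1.67, 2.25 and 3.98 CPM under VLDL. Means were 2.59 ± 1.68, 2.67 ± 1.20 and 2.43 ± 0.99 CPM (in the order GKT136901, LPL:VLDL, VLDL; SD, n = 5 each). In H2BC10 the levels were 5.48, 1.41, 5.2, 0.457 and 0.915 CPM with GKT136901, 2.08, 0.693, 2.2, 0.109 and 0 CPM under LPL:VLDL and 0.879, 2.75, 0.209, 0 and 2.05 CPM under VLDL. GKT136901 was above LPL:VLDL in 5 of 5 experiments, the ranges overlapped, and the GKT136901 libraries of experiments 2 and 4 held 53 and 48 counts, against 4 to 8 in the other 3 of that group. The log2 difference of H2BC10 for GKT136901 versus LPL:VLDL was 1.38 ± 0.86 (SE, unadjusted p = 0.118, adjusted p = 1.00, edgeR quasi-likelihood test) and with the block 1.49 ± 0.76 (unadjusted p = 0.0579, adjusted p = 1.00).
H2BC12, given here after its values were seen, was the one member whose groups did not overlap in a comparison. It had 2.34, 3.05, 2.89, 2.30 and 2.15 CPM with LPL:VLDL, all above the 2.11, 1.73, 0.940, 0.901 and 1.20 CPM with VLDL. Of all 4099 genes, 0.244% were higher with LPL:VLDL without overlap and 0.317% were lower, where 0 members were. For GKT136901 versus LPL:VLDL 0 members were higher (0.146% of all genes) or lower (0.342%) without overlap, and for GKT136901 versus VLDL 0 were higher (0.195%) or lower (0.317%). The log2 difference of H2BC12 was 0.87 ± 0.52 (SE, unadjusted p = 0.107, adjusted p = 0.999, edgeR quasi-likelihood test). Its head-to-head partner H2AC12 went the other way in the mean, with 1.80 ± 0.73 CPM under LPL:VLDL and 2.29 ± 1.23 CPM under VLDL (SD, n = 5 each). Within experiments, H2AC12 was nevertheless higher with LPL:VLDL in 3 of 5, and its log2 difference was -0.34 ± 0.47 (SE, unadjusted p = 0.475, edgeR).

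H3 and H4 form the tetramer at the core of the nucleosome, and 4 members of each family were tested. H3C1 had 2.9, 4.02, 2.71, 4.0 and 1.14 CPM with GKT136901, 3.13, 4.29, 2.78, 1.97 and 3.62 CPM under LPL:VLDL and 0.967, 2.75, 3.24, 1.92 and 2.41 CPM under VLDL. LPL:VLDL was above VLDL in 4 of 5 experiments, the ranges overlapped, and the log2 difference was 0.48 ± 0.43 (SE, unadjusted p = 0.272, edgeR). H3C12 stood at 2.28, 1.41, 0, 0 and 3.2 CPM with GKT136901, 2.17, 1.8, 1.04, 2.19 and 0.402 CPM under LPL:VLDL and 0.967, 2.34, 2.3, 0.451 and 0 CPM under VLDL. It was at 0 counts in 3 of the 15 libraries, 2 with GKT136901 and 1 with VLDL.
H4C5 had 3.83, 5.83, 8.99, 8.56 and 4.46 CPM with GKT136901, 3.82, 4.02, 5.33, 4.38 and 6.84 CPM under LPL:VLDL and 8.0, 6.11, 5.12, 4.17 and 4.58 CPM under VLDL. Means were 6.34 ± 2.35 CPM with GKT136901, 4.88 ± 1.24 CPM under LPL:VLDL and 5.6 ± 1.53 CPM under VLDL (SD, n = 5 each), and the ranges overlapped. The log2 differences of H4C5 were 0.38 ± 0.34 for GKT136901 versus LPL:VLDL, 0.18 ± 0.34 for GKT136901 versus VLDL and -0.20 ± 0.34 for LPL:VLDL versus VLDL (SE). The last was 0.0077 without experiment 2, a choice made after seeing the data, and that for GKT136901 versus VLDL was -0.03 with the block and without experiment 4 and -0.10 with the block and without experiment 5. For H4C2 the levels were 0.828, 0.201, 0.758, 1.94 and 0.572 CPM with GKT136901, 1.04, 2.22, 1.62, 0.547 and 1.48 CPM under LPL:VLDL and 1.93, 2.75, 1.46, 1.58 and 1.2 CPM under VLDL. GKT136901 was below VLDL in all experiments except experiment 5, with a log2 difference of -1.01 ± 0.60 (SE, unadjusted p = 0.102, adjusted p = 0.999, edgeR quasi-likelihood test).

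Summed over the 70 members, the level was 70.8, 49.7, 56.8, 46.8 and 35.2 CPM with GKT136901, 68.9, 49.3, 46.9, 47.2 and 39.3 CPM under LPL:VLDL and 74.3, 52.0, 61.4, 37.3 and 40.2 CPM under VLDL, in experiments 2 to 6. The groups overlapped throughout, and experiment 2 was highest in each. The means were 51.9 ± 13.1 CPM with GKT136901, 50.3 ± 11 CPM under LPL:VLDL and 53.0 ± 15.3 CPM under VLDL (SD, n = 5 each). The log2 ratio of means was 0.04 for GKT136901 versus LPL:VLDL, -0.03 for GKT136901 versus VLDL and -0.08 for LPL:VLDL versus VLDL, with the first group higher in 3, 1 and 1 of 5 experiments. By family, the H1 sum was lowest with LPL:VLDL (6.98 ± 1.85 CPM with GKT136901, 5.71 ± 2.75 CPM under LPL:VLDL and 7.31 ± 2.77 CPM under VLDL). No family differed between 2 group means by more than its SD over libraries.

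Genes that make, cut and degrade histone mRNA were examined as a list of 20, among them SLBP, NPAT, LSM10, LSM11, ZNF473, TUT7 and the U7 small nuclear RNA gene RNU7-1. Of these, 9 were tested and 0 were called in the 3 comparisons (edgeR quasi-likelihood test, with or without the block). RNU7-1, which guides the cut, held 1768 of the list's 3853 counts, at 13.8 ± 2.0 CPM with GKT136901, 14.5 ± 4.6 CPM under LPL:VLDL and 12.7 ± 3.6 CPM under VLDL (SD, n = 5 each). U7 is a short RNA, so its counts can come from whole molecules, unlike those of the histone mRNAs. Of 48 S-phase genes such as MCM3 and MCM7, subunits of the replicative helicase, 9 were tested and 0 were called in the 3 comparisons. The G2/M list (18 genes, 1 tested), the replacement histones (19 genes, 5 tested), which are made outside S phase as well, and the cell cycle arrest list (15 genes, 5 tested) also had 0 calls. MKI67, a marker of cycling cells and the one G2/M gene tested, had a log2 difference of -0.82 for GKT136901 versus VLDL, and of -1.52 with the block (adjusted p = 0.999 and 0.997, edgeR quasi-likelihood test). By the same test its unadjusted p was under 0.05 with the block, as for 4.32% of all genes, and not without it. H3-3B, a replacement H3, averaged 1.80 ± 0.67 CPM with GKT136901, 2.12 ± 0.86 CPM under LPL:VLDL and 2.65 ± 0.35 CPM under VLDL (SD, n = 5 each).

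The summed histone level averaged between 38.3 and 71.3 CPM in the 5 experiments (n = 3 each), while the 3 group means lay between 50.3 and 53.0 CPM. In experiment 2 its 3 libraries held 68.9 to 74.3 CPM, and the 12 libraries of experiments 3 to 6 held 35.2 to 61.4 CPM, a ratio of means of 1.52. By family the ratio was 1.71 for H3, 1.63 for H2A, 1.56 for H1, 1.54 for H2B and 1.26 for H4, and for the sum without H4C5 it was 1.61. As a share of protein-coding counts the histones took 0.565% to 0.622% in experiment 2 and 0.338% to 0.581% in the other libraries, ranges that overlap, with a ratio of means of 1.34. Protein-coding genes themselves took 1.36% to 1.62% of all counts in experiment 2 and 0.769% to 1.08% in the others, and the TMM factors were 1.16, 1.34 and 1.32 in experiment 2, against 0.765 to 1.03 in the others.
Of the 22 members tested, 15 had a higher mean in experiment 2, with a median log2 ratio of 0.59, against 0.03 for all genes tested, of which 51.6% had a higher mean. In an F test over the 5 experiments 0 of the 22 members were called, against 11.1% of all genes (455 of 4099; edgeR quasi-likelihood test, adjusted p under 0.05). At an unadjusted p under 0.05 edgeR found 2 members, H2BC10 (adjusted p = 0.135) and H4C8 (adjusted p = 0.141), and 21.2% of all genes. H4C8, given here after its values were seen, had 3.31, 3.21 and 2.46 CPM in experiment 2 (GKT136901, LPL:VLDL and VLDL) and 0 to 1.6 CPM in experiments 3 to 6, 4 of them at 0 counts. It was the one member of 22 whose experiment 2 libraries all lay above the rest, as 3.32% of all genes did, and 0 members all lay lower there, against 4.64% of all genes. With library totals in place of TMM factors the edgeR test called H4C8 (adjusted p = 0.0362), and with no filter on low counts it called H2BC10 (adjusted p = 0.0237). By edgeR, H2BC10 was also called without the VLDL library of experiment 4 or 6 (adjusted p = 0.0397 and 0.0409). Of the members with most counts in H4, H1 and H2B, H4C5 stood at 5.22 CPM in experiment 2 and 5.70 CPM in the others, H1-4 at 2.73 and 3.26 CPM, and H2BC21 at 2.56 and 2.65 CPM (experiment 2 and the others).

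**Figure D4:**
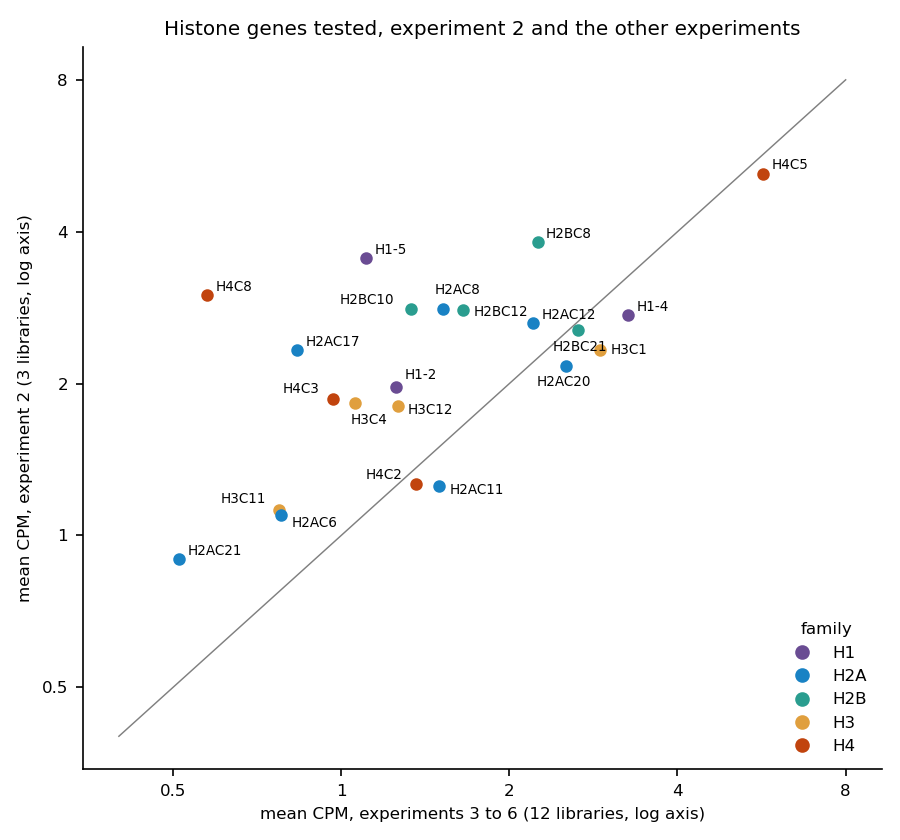
Mean level of the 22 histone genes tested in experiment 2 (vertical axis, 3 libraries) and in experiments 3 to 6 (horizontal axis, 12 libraries), both in TMM-scaled CPM on log axes, coloured by family; the line marks equal levels. The points of 15 genes lie above the line, H4C8 and H1-5 farthest, and those of H4C5, H1-4, H2BC21, H3C1, H2AC20, H2AC11 and H4C2 below it.

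S-phase and G2/M genes were also high in experiment 2, and the mean sums of replacement histones and of cell cycle arrest genes were higher there too. The summed S-phase level was 56.9, 61.6 and 62.7 CPM in experiment 2 (GKT136901, LPL:VLDL and VLDL) and lay between 11.9 and 23.8 CPM in experiments 3 to 6, a ratio of means of 3.68. The G2/M sum was 19.7, 26.8 and 28.6 CPM in experiment 2 and 1.94 to 8.67 CPM in the others. In the F test over experiments, MCM3 and MCM7 were called of 9 S-phase genes tested and MKI67 as the 1 G2/M gene tested, against 11.1% of all genes, and MKI67 stood at 7.90 to 9.67 CPM in experiment 2 and 0 to 3.45 CPM elsewhere. The replacement histone sum was 11.5 to 14.9 CPM in experiment 2 and 5.67 to 12.8 CPM in the others, a ratio of means of 1.57. The cell cycle arrest sum was 39.3 to 40.5 CPM in experiment 2 and 22.9 to 35.0 CPM in the others, a ratio of means of 1.38. In each of these 2 lists 0 of 5 genes tested were called over experiments. The ratio of the histone sum to the S-phase sum was 1.12 to 1.24 in experiment 2 and 2.14 to 4.76 in the others, ranges that do not overlap. The histone mRNA processing sum was 23.8 to 33.2 CPM in experiment 2 and 22.2 to 32.7 CPM in the others, with RNU7-1 at 6.94 to 11.2 CPM and 12 to 19.4 CPM (adjusted p = 0.0606 over experiments, edgeR quasi-likelihood test). The summed level of the 17 detected of 18 myeloid genes was 70.1 to 95 CPM in experiment 2 and 28.8 to 61.4 CPM in the others, with AIF1 at 0 counts, and 4 of 10 tested were called, LAPTM5, SPP1, CSF1R and ITGB2, against 11.1% of all genes. The part of these lists, of the share of mRNA fragments and of the scaling in the histone difference was not tested. Between groups, the sums of experiments 3 to 6 alone averaged 47.1 ± 9.0 CPM with GKT136901, 45.7 ± 4.4 CPM under LPL:VLDL and 47.7 ± 11.1 CPM under VLDL (SD, n = 4 each).

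**Figure D5:**
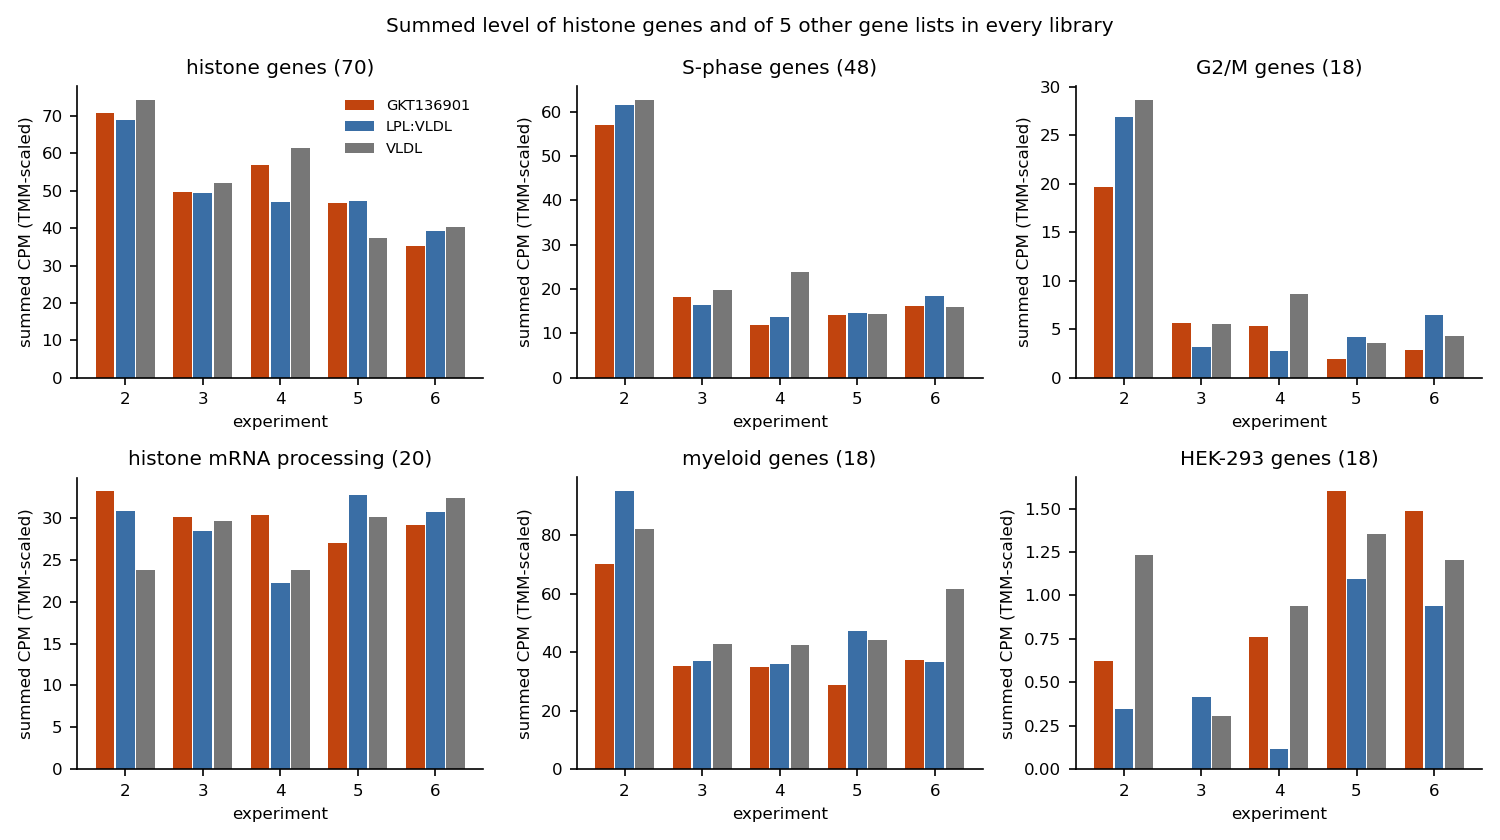
Summed TMM-scaled CPM of the histone genes and of 5 other gene lists in each library (bars), by experiment and group; the number of listed genes is in each title. The histone bars are highest in experiment 2 (68.9 to 74.3 CPM), the S-phase and G2/M bars stand far higher in experiment 2, the histone mRNA processing bars do not, and the HEK-293 bars stay at or below 1.6 CPM.

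The spread between libraries was set against counting error, for which a ratio near 1 stands. The chi-square of the counts over the 15 libraries, per degree of freedom (14), ran from 1.19 for H2BC21 to 16.6 for H2BC10, with a median of 4.48 over the 22 members. Protein-coding genes tested in the same range of counts (80 to 748, 3041 genes) had a median of 5.01. The coefficient of variation over 15 libraries was 0.31 for H4C5, 0.33 for H1-4 and 0.36 for H3C1, and 1.03 for H1-5, 1.07 for H2BC10 and 1.08 for H4C8. Partners of a pair held similar counts in some pairs and unequal ones in others. H2AC20 and H2BC21 held 327 and 349 counts, H2AC12 and H2BC12 308 and 252, H2AC8 and H2BC8 244 and 347, and H2AC13 and H2BC13 5 and 6. H2AC8 had 1 and 2 counts in the VLDL libraries of experiments 3 and 6, where H2BC8 had 15 and 33. H2AC6 and H2BC4 held 115 and 32 counts, H2AC14 and H2BC14 10 and 52, and H2AC15 and H2BC15 12 and 29. H2AC11 and H2BC11 held 195 and 38 counts, H2AC17 and H2BC17 160 and 28, and H2AC7 and H2BC7 11 and 47. Most of H2AC7 (85.3% of its exon) lies inside an exon of H3C4, where reads were not counted.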

How the data were processed

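Small RNA was sequenced in 15 libraries, 5 per group. Per the file headers, the deposited values are whole-number read counts per gene, made by the authors with featureCounts 2.0.6 over RefSeq exons, without strand, without reads that map to several places and without reads over more than 1 gene; they were not normalized. The submitters' processing notes also name fastp 0.24.0, STAR 2.7.11b, R 4.4.2, edgeR 4.4.2, DESeq2 1.46 and hg38, without their roles. Near-identical histone copies therefore lose shared reads. All 15 columns were matched to samples, and 0 were left without one.

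Total counts were 5076917 to 9757123 per library. Counts were scaled by TMM and tested with edgeR 4.0.16 (R 4.3.3, quasi-likelihood) on the 4099 genes that filterByExpr kept (minimum count 10, minimum total 15), all 3 groups in 1 fit, with Benjamini-Hochberg adjustment over all of them and a threshold of 0.05. The fit had 12 residual degrees of freedom, and 8 with the experiment as a block. DESeq2 1.42.0 and limma 3.58.1 (voom) were alternatives, as were other scalings, filters and left-out libraries. The labels give each experiment 1 library per group, which pairs the libraries. The correlation of deviations within an experiment was 0.066 to 0.378 (median 0.115, 15 pairs). In the 60 pairs of other experiments and groups it was -0.148 to 0.148 (median -0.07), so the ranges overlapped. Replicates differed by more than counting error (chi-square per degree of freedom 8.59 to 167 in 30 pairs), so each was counted once. The labels name no separate cultures, so a p-value here reflects how far the deposited libraries of a group vary, and that variation may be technical. The procedure was tested on simulated data.

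Values in every library are given for the 2 members with most counts in each family, for any member called, and for the member with the lowest unadjusted p in each comparison with and without the block. The members, gene lists and tests were chosen with earlier results of these data known. Floors rest on 3 counts and cover counting error only. Stem-loops were searched in GENCODE v29 transcripts and motifs in RefSeq sequence (GRCh38.p14).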

Additional observations from a re-analysis of the deposited data

Results flagged for a closer look

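In groups of 5 libraries, 54 sets of values were checked for a library far from the other 4 (gap over range above 0.71), and 10 had one. Chance gives about 1 in 20 such sets when the values follow a normal distribution, which was not tested here. These sets share the same libraries and are not independent, so the number flagged cannot be set against that rate. H1-5 stood at 5.99 CPM in the LPL:VLDL library of experiment 2, with 1.39 CPM in the nearest of its group. H2AC20 stood at 0.343 CPM in the GKT136901 library of experiment 6, with 2.21 CPM in the nearest. The other 8 were all libraries of experiment 2. The summed S-phase level was 56.9 CPM with GKT136901 (nearest 18.1), 61.6 CPM with LPL:VLDL (nearest 18.4) and 62.7 CPM with VLDL (nearest 23.8). The summed G2/M level was 19.7 CPM with GKT136901 (nearest 5.63), 26.8 CPM with LPL:VLDL (nearest 6.44) and 28.6 CPM with VLDL (nearest 8.67). The summed myeloid level was 70.1 CPM with GKT136901 (nearest 37.2) and 95.0 CPM with LPL:VLDL (nearest 47.1). The summed histone level of experiment 2 was highest in each group but not that far from the others.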

How the results depend on the processing

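No histone member was called in a group comparison under any alternative run, and leaving out 1 library gave 0 to 0 members and 0 to 0 genes in each. The block changed no call of a member. Over all genes, LPL:VLDL versus VLDL had 1 call with the block, 5 with DESeq2 and the block, 2 with limma voom and the block, 1 with the block without experiment 2 and 2 with the block without experiment 3. GKT136901 versus VLDL had 2 calls with DESeq2 and the block and 1 with limma voom and the block. The log2 difference of H4C5 for LPL:VLDL versus VLDL was 0.0028 with the block without experiment 2 and 0.0077 without experiment 2 (chosen after seeing the data). For GKT136901 versus VLDL it was -0.030 with the block without experiment 4 and -0.10 with the block without experiment 5. Between experiments, 1 member was called with total counts as scale, 1 with no filter, and 0 to 1 without single libraries; genes called numbered 145 without experiment 2 and 325 to 506 without single libraries. The cause was not tested. Without single libraries, H1-2 (LPL:VLDL versus VLDL) ranged from -2.14 to -1.30, H2AC11 and H2BC10 (GKT136901 versus LPL:VLDL) from -1.49 to -0.77 and from 0.95 to 1.84, and H4C2 (GKT136901 versus VLDL) from -1.54 to -0.81. With the other alternatives, H2AC11 ranged from -1.47 to -0.56 (the last with the block without experiment 5, against -1.15 with the block) and H4C2 from -1.50 to -0.63 (the last with the block without experiment 3), while H1-2 ranged from -2.42 to -1.54 and H2BC10 from 1.35 to 1.71. For LPL:VLDL versus VLDL, DESeq2 with the block gave no adjusted p for H1-2 and H4C5, so its 0 calls do not cover them. The 48 members under the filter on low counts were not tested.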
